A study of Rattus norvegicus with 9 samples.

Results

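Collagen chains outside cartilage were followed through senescence and an intervention in rat nucleus pulposus cells, which fill the soft centre of the disc between vertebrae. The members are the protein-coding genes of the count table named as a collagen alpha chain, without the chains of the cartilage collagens II, IX and XI. Of 44 such genes 6 belong to cartilage collagens, which leaves 38 chains among 22324 genes, 17949 of them protein-coding. The chains fall into 8 fibrillar chains, 9 chains of basement membranes or their anchorage, and 21 chains of other classes.

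Polyadenylated RNA was sequenced from 9 libraries of primary, wild-type rat cells in high-glucose medium with 10% serum. The 3 libraries titled BNPMT had BNPMT, an intervention that the labels do not spell out or dose, in senescence caused by doxorubicin. The 3 libraries titled SEN were made senescent with doxorubicin, a drug that breaks DNA, at 200 nM over 24 h, followed by 6 days in new medium. The 3 libraries titled NC carry no treatment label and were taken as the untreated cells from their title and the study's design text, although the doxorubicin protocol stands on every sample. No label says whether the libraries of a group came from separate cultures or animals, so p-values here reflect only how far these libraries differ, a spread that could be technical.

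A collagen is a trimer of alpha chains wound into a triple helix. Fibrillar collagens build the rope-like fibrils that give tissue its tensile strength, type IV collagen forms the sheet-like network of basement membranes, and type VI forms beaded filaments close to cells. FACIT collagens sit on the surface of fibrils, and transmembrane collagens stay on the cell. In a healthy disc the outer annulus is rich in type I collagen, while the nucleus is rich in cartilage collagens and aggrecan.

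Libraries held 31206834 to 41971877 counts in total. Changes are log2 ratios from edgeR's quasi-likelihood test with TMM factors, which scale each library to the bulk of its genes, and p-values were adjusted over 14956 genes by the Benjamini-Hochberg method with a threshold of 0.05. TMM factors were 0.797 to 0.805 in SEN, against 1.095 to 1.10 in NC, and were 1.12 to 1.15 in BNPMT. Scaling libraries by their totals only (total counts alone) moved the median change of all genes. It became -0.46 for SEN against NC and 0.52 for BNPMT against SEN. Both scales are therefore given for many, but not all, results where they differ in direction or call. FPKM values, which are per length, and CPM values are per total count. Deviations of a library from its group mean followed transcript length, with Spearman's rho across genes of 0.51, -0.43 and -0.32 in BNPMT 1, 2 and 3, -0.42, 0.26 and 0.23 in SEN 1, 2 and 3, and -0.20 to 0.15 in NC. Deviations from a mean of 3 libraries cancel out, so an opposite sign alone does not mark a library. BNPMT 1 and SEN 1 had the rho of largest size in their groups, and results are also given without them where they differ. The collagen transcripts were long, with a median of 6399 nt against 3329 nt over all tested genes. Of the markers of nucleus pulposus, Acan, Col2a1 and Sox9 were present in all groups, but the notochordal marker Tbxt had at most 0.0932 CPM on average in a group and Krt18 at most 0.152 CPM. Of 13 tested nucleus pulposus markers 7 were higher and 5 lower in SEN than in NC, 5 higher and 7 lower in BNPMT than in SEN, and 1 higher and 5 lower in BNPMT than in NC. The shares of all tested genes were 37.6% higher and 38.5% lower in SEN against NC, 40.7% and 39.9% in BNPMT against SEN, and 26.3% and 26.5% in BNPMT against NC.

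The collagen chains took up a smaller part of the RNA in BNPMT cells, at 3.24% ± 0.288 of all counts, than in SEN cells, at 6.19% ± 0.0994, or NC cells, at 6.21% ± 0.131 (SD, n = 3 each). Their summed level was 5805 ± 496 FPKM in BNPMT, 10897 ± 139 in SEN and 10949 ± 225 in NC. Like all sums here, it is per total count and does not use TMM factors. The BNPMT libraries, at 5455 to 6373 FPKM, lay below all libraries of the other groups, whereas SEN, at 10769 to 11046, overlapped with NC, at 10753 to 11195. In bulk RNA, fewer cells of a type and less RNA per cell cannot be told apart.

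The fibrillar chains summed to 4466 ± 397 FPKM in BNPMT, 8378 ± 52.7 in SEN and 8941 ± 175 in NC, with no overlap between groups. The basement membrane chains summed to 314 ± 35.7 FPKM in BNPMT, 337 ± 25.5 in SEN and 459 ± 17.4 in NC, where BNPMT and SEN overlapped and NC was above both. The other classes stood highest in SEN, at 2182 ± 65.9 FPKM, against 1549 ± 32.9 in NC, and lowest in BNPMT, at 1026 ± 63.8. Without BNPMT 1 and SEN 1 the ratio of BNPMT to SEN was 0.505 for fibrillar, 0.834 for basement membrane and 0.447 for the other classes, against 0.533, 0.932 and 0.470 with all libraries. The place of SEN in these sums depends on the scale. With TMM factors the median log2 change in SEN against NC was 0.34 for fibrillar and -0.10 for basement membrane chains. With total counts alone it was -0.11 and -0.55. In BNPMT against SEN the basement membrane median was -0.13 with TMM factors and 0.37 with total counts alone.

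**Figure D1:**
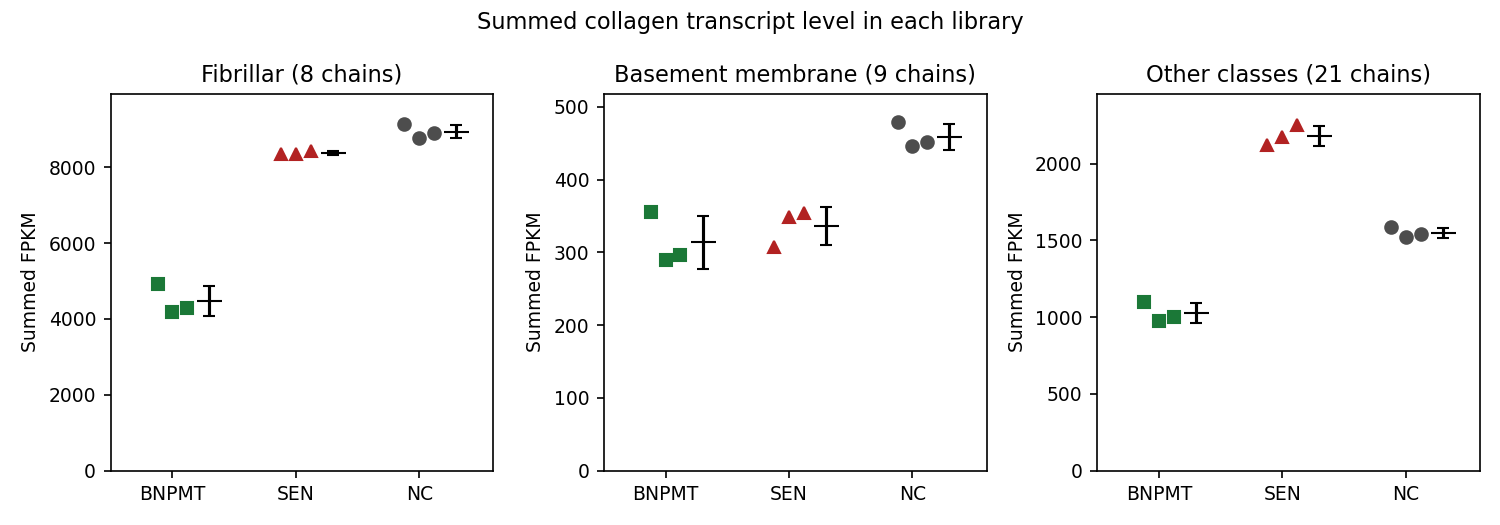
Summed FPKM per library (vertical axes, from 0) of the fibrillar, basement membrane and other collagen chains in BNPMT, SEN and NC, with 1 mark per library and the mean ± SD of 3 beside them. The sums are per total count, without TMM factors. Fibrillar sums in BNPMT reach at most 4921 FPKM, below every SEN and NC library, and the other classes are highest in SEN.

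The makeup of the collagen RNA differed as well. Type I chains were 53.8% ± 0.194 of the members' summed FPKM in BNPMT, 61.5% ± 0.826 in SEN and 62.6% ± 0.0638 in NC. Type VI chains made up 12.4% ± 0.512 in BNPMT and 12.3% ± 0.177 in SEN, against 8.65% ± 0.0123 in NC. FACIT chains had 3.97% ± 0.0939 in BNPMT, 6.43% ± 0.306 in SEN and 4.12% ± 0.0253 in NC. Type IV was largest in BNPMT, at 4.70% ± 0.164, and smallest in SEN, at 2.86% ± 0.193, with 3.87% ± 0.0694 in NC. These shares do not depend on how the libraries are scaled.

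Of the 38 chains 31 passed the filter on low counts and were tested. In SEN against NC 17 were higher, 3 lower and 11 did not pass, where 37.6% of all tested genes were higher and 38.5% lower. The members' median log2 change was 0.29, against -0.01 over all genes. Here the scale mattered: with total counts alone 10 were higher and 13 lower (24.5% and 56.9% of all genes), with a median of -0.16 against -0.46. On all 4 scales tried the same 10 chains were higher (Col4a5, Col4a6, Col6a1, Col6a2, Col10a1, Col14a1, Col16a1, Col20a1, Col22a1 and Col27a1) and the same 2 lower (Col4a1 and Col4a3). Of these, Col10a1 passed the filter only through its SEN libraries. The share of all tested genes called alike on all 4 scales was not counted, here or for the other comparisons. The chains' counts on 4 scales can therefore not be set against it.

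In BNPMT against SEN 4 chains were higher, 23 lower and 4 did not pass, where 40.7% of all genes were higher and 39.9% lower. The median was -1.31, against 0.02 over all genes. With total counts alone 7 were higher and 22 lower (57.3% and 25.8% of all genes), with a median of -0.80 against 0.52. On 4 scales 22 chains stayed lower, and Col4a3, Col7a1 and Col17a1 stayed higher. In BNPMT against NC 2 chains were higher, 24 lower and 5 did not pass, where 26.3% of all genes were higher and 26.5% lower. The median was -0.75, against 0.00 over all genes. With total counts alone 3 were higher and 23 lower (30.2% and 22.5% of all genes). In this comparison 20 chains were lower and 2 higher on 4 scales. The 3 comparisons share groups, so they are not independent of each other.

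**Figure D2:**
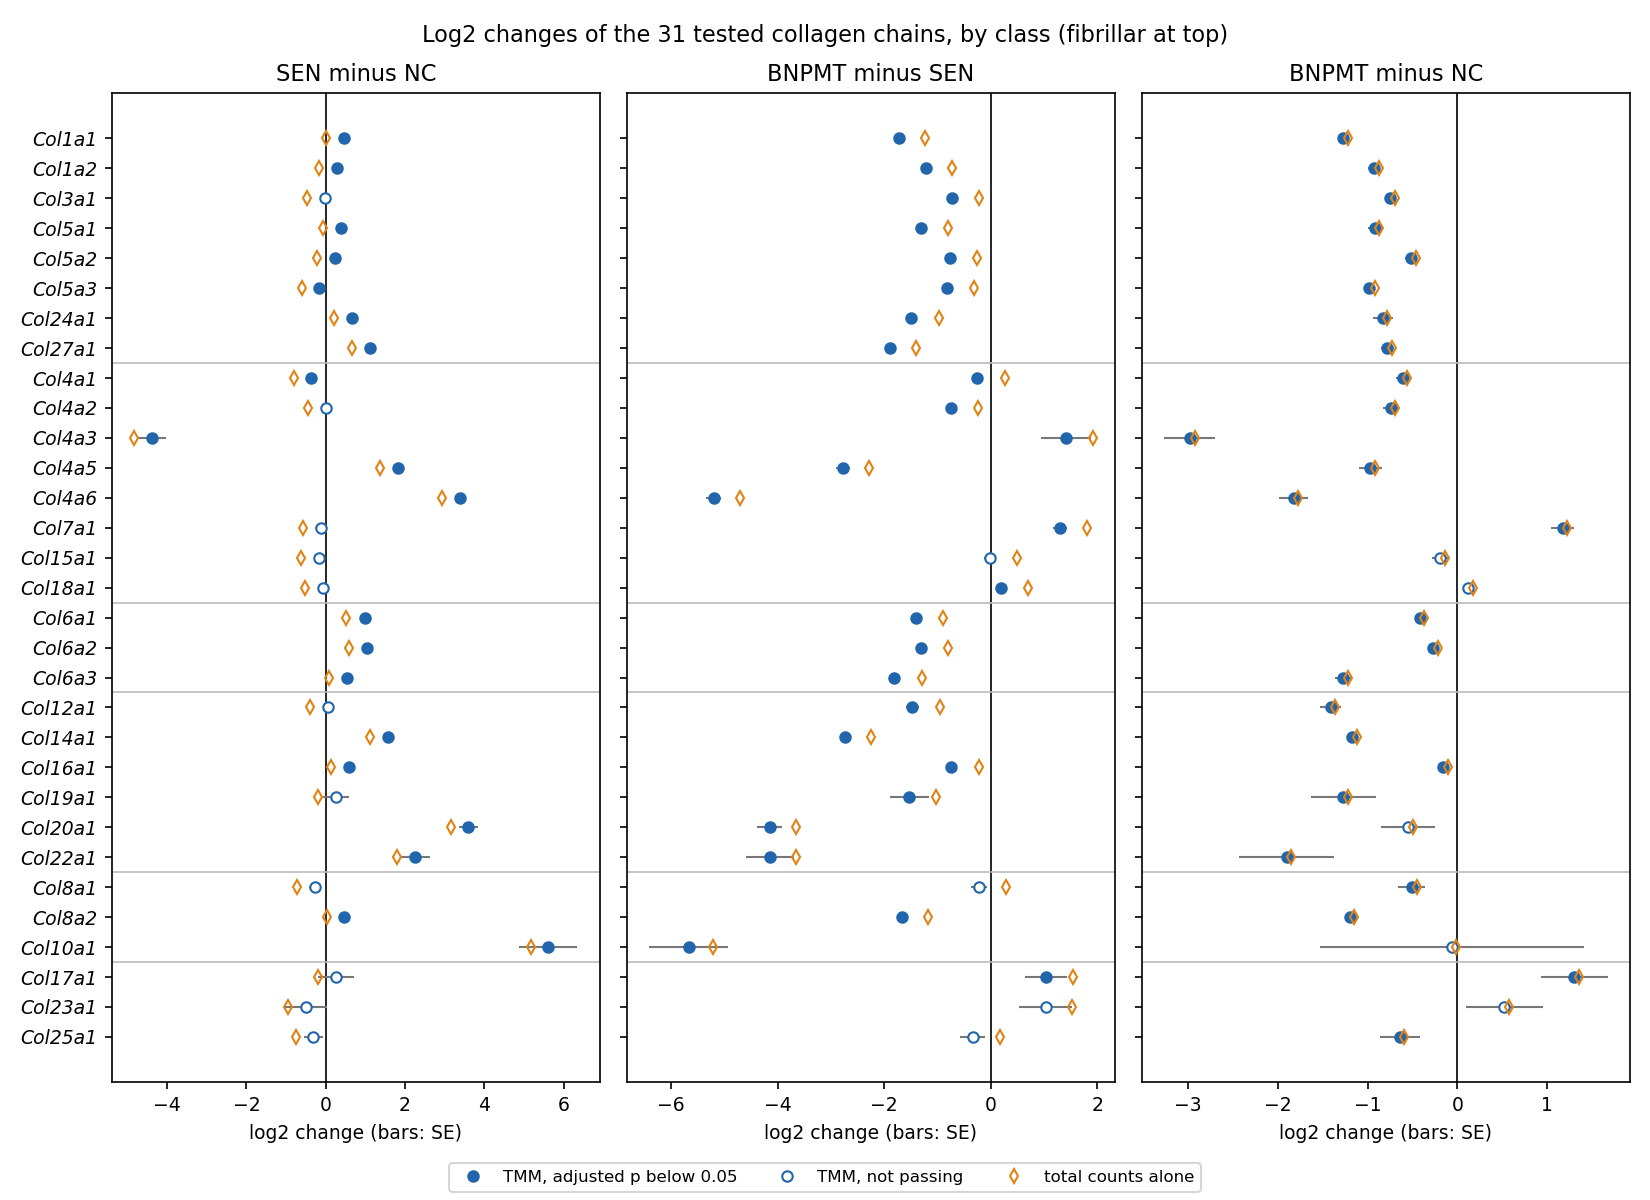
Log2 change (horizontal axes) of the 31 tested collagen chains, SEN minus NC, BNPMT minus SEN and BNPMT minus NC, with bars for the standard error. Filled circles passed an adjusted p of 0.05 with TMM factors, open circles did not, and diamonds give the change with total counts alone, which lies below the TMM value in SEN minus NC and above it in BNPMT minus SEN.

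The fibrillar chains were the most uniform class: all 8 were lower in BNPMT than in SEN and lower than in NC, on each of the 4 scales. Their median log2 change was -1.26 against SEN and -0.87 against NC, where 39.9% and 26.5% of all tested genes were lower. In SEN against NC 6 were higher, 1 lower and 1 did not pass with TMM factors, but with total counts alone only Col27a1 was higher and 4 were lower. Over all genes 37.6% were higher and 38.5% lower with TMM factors, and 24.5% and 56.9% with total counts alone.

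Col1a1 and Col1a2 encode the chains of type I collagen, the main fibril collagen of bone, skin and the annulus. Col1a1 had 2459.8, 2109 and 2145 FPKM in BNPMT, 5270.0, 5207 and 5236 in SEN and 5342, 5133 and 5205 in NC. The BNPMT libraries were all below the others, and SEN lay within the range of NC. The log2 change was -1.73 ± 0.06 for BNPMT against SEN (SE, adjusted p = 6.46e-12) and -1.27 ± 0.06 for BNPMT against NC (adjusted p = 4.74e-09). For SEN against NC it was 0.46 with TMM factors and 0.00 with total counts alone, which ends the call. Col1a2 had 982, 831 and 852 FPKM in BNPMT, 1449, 1446 and 1481 in SEN and 1669.8, 1592 and 1624 in NC, in 3 groups without overlap. It changed by -1.22 ± 0.06 in BNPMT against SEN and by -0.93 ± 0.06 in BNPMT against NC, while its SEN against NC change of 0.29 turned to -0.16 with total counts alone.

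Type III collagen, a homotrimer of Col3a1 that shares fibrils with type I, had 636 ± 52.3 FPKM in BNPMT, 741 ± 9.06 in SEN and 1030.0 ± 8.69 in NC. It was lower in BNPMT than in SEN by a log2 change of -0.72 ± 0.05 (adjusted p = 2.56e-08), and its SEN against NC change of -0.02 did not pass with TMM factors but was -0.47 with total counts alone. Type V collagen starts fibrils and limits their width. Col5a1 had 193, 153 and 159 FPKM in BNPMT, 277, 293 and 312 in SEN and 319, 296 and 304 in NC, so that SEN and NC overlapped and BNPMT was lower. Its change was -1.31 ± 0.08 in BNPMT against SEN and -0.92 ± 0.07 in BNPMT against NC. For SEN against NC it was 0.39 with TMM factors and -0.06 with total counts alone. Col5a2 fell less, by 0.76 in BNPMT against SEN and by 0.52 in BNPMT against NC on the log2 scale, and its SEN against NC change was 0.24 with TMM factors and -0.21 with total counts alone. Col5a3, another chain of this type, had 16.6 ± 0.939 FPKM in BNPMT, 20.6 ± 1.36 in SEN and 31.5 ± 0.850 in NC. Its SEN against NC change of -0.16 (adjusted p = 0.0263) was the member nearest inside the threshold. That call was lost without SEN 1 (-0.13), without SEN 2 (-0.14) and without NC 1 (-0.15).

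Types XXIV and XXVII are minor fibrillar collagens, and the type XXVII chain is known from growing cartilage. Col27a1 had 3.78, 3.33 and 3.71 FPKM in BNPMT, 8.91, 9.30 and 10.3 in SEN and 6.27, 5.80 and 5.87 in NC. The SEN libraries were the highest and the BNPMT libraries the lowest. Its log2 change was 1.12 ± 0.07 in SEN against NC (adjusted p = 3.12e-09), where total counts alone gave 0.67, and -1.90 ± 0.07 in BNPMT against SEN (adjusted p = 1.58e-11). Col24a1 had 0.725, 0.565 and 0.722 FPKM in BNPMT, 1.24, 1.38 and 1.37 in SEN and 1.16, 1.19 and 1.11 in NC. All BNPMT libraries were below all others, by -1.49 ± 0.11 against SEN and -0.83 ± 0.11 against NC. The SEN against NC change of 0.66 dropped to 0.21 with total counts alone, which ends the call.

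**Figure D3:**
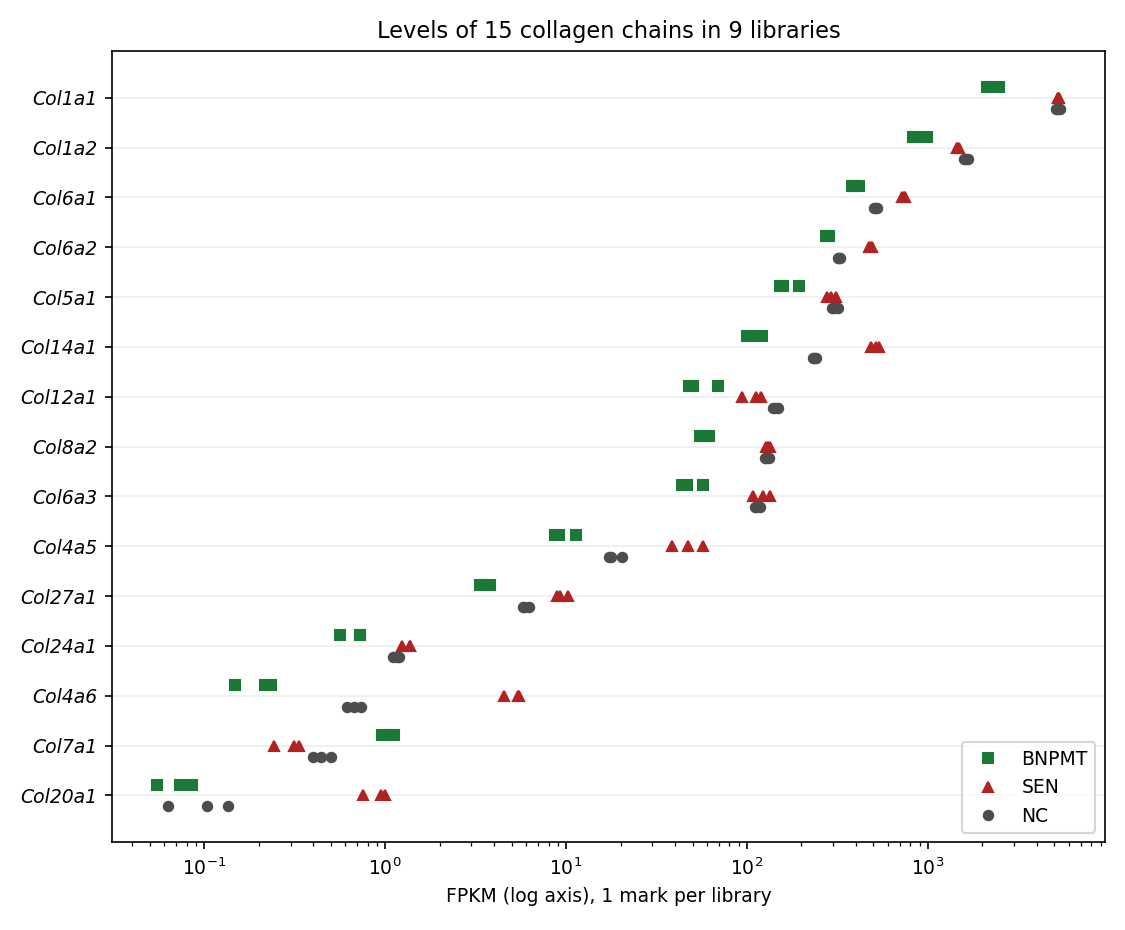
FPKM (log axis) of the 15 chains with a mean of at least 5 CPM in some group and a called log2 change of at least 1 in some comparison, with 1 mark per library for BNPMT, SEN and NC. Col1a1 is the highest chain in every group, Col14a1, Col4a5 and Col4a6 are highest in SEN, and Col7a1 is highest in BNPMT.

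The basement membrane chains moved in both directions in SEN against NC and in BNPMT against SEN, while most were lower in BNPMT than in NC. In SEN against NC 2 were higher, 2 lower and 4 did not pass (2 higher and 6 lower with total counts alone). Of all genes 37.6% were higher and 38.5% lower (24.5% and 56.9% with total counts alone). In BNPMT against SEN 3 were higher, 4 lower and 1 did not pass (5 higher and 3 lower with total counts alone). Of all genes 40.7% were higher and 39.9% lower there (57.3% and 25.8% with total counts alone). In BNPMT against NC 1 was higher, 5 were lower and 2 did not pass, where 26.3% of all genes were higher and 26.5% lower. The median in that comparison was -0.68, against 0.00 over all genes. Type IV chains assemble as alpha1 with alpha2 in nearly all basement membranes, as alpha3 with alpha4 and alpha5 in kidney, lung and inner ear, and as alpha5 with alpha6 in some epithelia and around smooth muscle. Their genes lie in head-to-head pairs that point away from each other at their starts. The promoters of 1 gene of each pair, and of Col4a6, are shown because the chains of the 3 pairs took different courses in SEN, described after them. They are RefSeq sequences of 300 bases, 250 before to 50 after the annotated start, on the build GRCr8, while the counts were made on mRatBN7.2. RefSeq promoters matched 31 of the 38 members. Capitals mark the letters CCAAT and GGGCGG on either strand. The windows are chr16:84885347-84885646 on the plus strand for Col4a1, chr9:91323740-91324039 on the plus strand for Col4a3, chrX:109907109-109907408 on the plus strand for Col4a5 and chrX:109905895-109906194 on the minus strand for Col4a6.
Col4a1: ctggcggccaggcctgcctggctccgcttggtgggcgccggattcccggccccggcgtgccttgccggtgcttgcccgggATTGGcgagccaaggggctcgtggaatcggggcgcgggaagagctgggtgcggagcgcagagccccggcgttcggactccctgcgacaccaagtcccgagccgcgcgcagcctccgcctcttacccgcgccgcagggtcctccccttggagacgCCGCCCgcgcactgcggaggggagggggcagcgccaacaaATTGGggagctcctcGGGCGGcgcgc
Col4a3: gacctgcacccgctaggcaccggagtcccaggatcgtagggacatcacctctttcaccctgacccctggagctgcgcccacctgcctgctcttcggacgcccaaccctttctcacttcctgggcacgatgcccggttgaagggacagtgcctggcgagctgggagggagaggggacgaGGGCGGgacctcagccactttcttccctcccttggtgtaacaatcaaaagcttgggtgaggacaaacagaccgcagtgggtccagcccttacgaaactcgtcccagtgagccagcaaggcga
Col4a5: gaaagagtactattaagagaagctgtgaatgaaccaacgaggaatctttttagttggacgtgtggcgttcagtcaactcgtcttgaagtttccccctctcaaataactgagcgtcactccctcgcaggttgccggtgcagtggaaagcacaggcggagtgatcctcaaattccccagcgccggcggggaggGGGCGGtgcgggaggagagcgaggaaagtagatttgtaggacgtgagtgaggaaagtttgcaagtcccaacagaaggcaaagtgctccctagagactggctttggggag
Col4a6: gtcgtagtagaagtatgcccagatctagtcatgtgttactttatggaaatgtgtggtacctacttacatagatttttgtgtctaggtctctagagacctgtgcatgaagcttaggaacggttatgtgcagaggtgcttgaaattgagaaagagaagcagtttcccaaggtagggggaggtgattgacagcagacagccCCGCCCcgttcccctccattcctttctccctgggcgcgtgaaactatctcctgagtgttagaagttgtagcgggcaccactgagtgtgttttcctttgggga

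The annotated starts lay 77 bases apart for Col4a1 and Col4a2 on chromosome 16, 413 for Col4a3 and Col4a4 on chromosome 9, and 1415 for Col4a5 and Col4a6 on chromosome X, so that the windows overlapped by 176, 88 and 0 bases. CCAAT was found in 2 places in the Col4a1 window and in 1 in that of Col4a2, and in none of the other 4 windows, while 37.5% of 33465 promoters hold it. The place in the Col4a2 window is also 1 of those in the Col4a1 window, in the stretch where they overlap. GGGCGG was found in all windows but that of Col4a4, and in 33.1% of promoters. The Col4a1 and Col4a2 windows share the same 2 places of GGGCGG. Neither TATAAA, held by 14.2%, nor TGANTCA, the letters of an AP-1 site held by 7.33%, was found in any of the 6. All 4 motifs were searched on both strands. GC content was 75.0% in the Col4a1 window, 62.0% in that of Col4a3, 53.3% in that of Col4a5 and 48.3% in that of Col4a6. A match is a description of the letters and not a binding site.

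Col4a1 and Col4a2, the common pair, were the most abundant type IV chains. Col4a1 had 168, 139.9 and 146 FPKM in BNPMT, 119, 128 and 133 in SEN and 231, 216 and 221 in NC. NC was the highest group and SEN the lowest, without overlap. The log2 change was -0.36 ± 0.06 in SEN against NC (adjusted p = 0.00017), -0.61 ± 0.07 in BNPMT against NC and -0.25 ± 0.06 in BNPMT against SEN, which turned to 0.26 with total counts alone and was -0.04, not past the threshold, with the length trend taken out. Col4a2 had 112 ± 17.0 FPKM in BNPMT, 133 ± 10.4 in SEN and 181 ± 9.26 in NC. It was lower in BNPMT, by -0.75 ± 0.09 against SEN and -0.74 ± 0.09 against NC, and its SEN against NC change was 0.00 with TMM factors and -0.45 with total counts alone.

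Col4a3, a chain of specialised basement membranes, was low in every group and nearly absent in SEN. It had 22, 10 and 25 counts in BNPMT, 2, 7 and 4 in SEN and 139, 137 and 147 in NC. The groups did not overlap, and NC was far above both others. The log2 change was -4.39 ± 0.37 in SEN against NC (adjusted p = 9.58e-08) and -2.98 ± 0.28 in BNPMT against NC (adjusted p = 3.44e-06). The change of 1.41 ± 0.47 in BNPMT against SEN (adjusted p = 0.0133) lost its call without SEN 1, at 1.02. Col4a4, its partner, did not pass the filter. It had 3 counts in all in BNPMT, 2 in SEN and 29 in NC, which per total count is a ratio of 0.0768 for SEN against NC (95% counting interval 0.00888 to 0.304) and of 0.102 for BNPMT against NC (0.0198 to 0.328). Intervals of this kind cover counting error only.

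Col4a5 and Col4a6, the X-linked pair, were higher in SEN than in NC, and lower in BNPMT than in both. Col4a5 had 11.4, 8.71 and 9.14 FPKM in BNPMT, 38.3, 56.9 and 46.9 in SEN and 17.3, 20.3 and 17.7 in NC. SEN was highest and BNPMT lowest, without overlap. It rose by 1.82 ± 0.13 on the log2 scale in SEN against NC (adjusted p = 1.44e-08) and changed by -2.78 ± 0.13 in BNPMT against SEN (adjusted p = 2.21e-10) and by -0.97 ± 0.13 in BNPMT against NC. Col4a6 had 0.218, 0.233 and 0.148 FPKM in BNPMT, 4.55, 5.42 and 5.52 in SEN and 0.674, 0.619 and 0.734 in NC. The order of the groups was the same, with wider gaps. Its log2 change was 3.38 ± 0.12 in SEN against NC (adjusted p = 1.2e-11), -5.20 ± 0.14 in BNPMT against SEN (adjusted p = 6.66e-13) and -1.82 ± 0.16 in BNPMT against NC (adjusted p = 1.59e-06). With total counts alone the SEN against NC changes were 1.36 for Col4a5 and 2.93 for Col4a6.

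Markers of tissues where the alpha5 and alpha6 chains are known moved too, in different directions. Of 10 smooth muscle markers 9 were lower and 1 higher in SEN than in NC, 8 higher and 1 lower in BNPMT than in SEN, and 1 higher and 8 lower in BNPMT than in NC. Of all genes 37.6% were higher and 38.5% lower in SEN against NC, 40.7% and 39.9% in BNPMT against SEN, and 26.3% and 26.5% in BNPMT against NC. The smooth muscle markers summed to 2979 to 3215 CPM in BNPMT, 1639 to 1823 in SEN and 5185 to 5224 in NC. The epithelial markers Epcam, Cldn4 and Cdh1 summed to 0.0953 to 0.199 CPM in BNPMT, 5.40 to 5.99 in SEN and 0.0741 to 0.215 in NC, with Cdh1 near 0 throughout. Endothelial markers, 9 with a value, summed to 26.5 to 31.9 CPM in BNPMT, 21.3 to 24.5 in SEN and 24.6 to 25.7 in NC. Most of this sum was Egfl7, with a mean of 27 CPM in BNPMT, 13 in SEN and 21 in NC. Pecam1 and Erg were instead highest in SEN. Pecam1 had 0.0254 CPM in BNPMT, 4.04 in SEN and 0.0165 in NC. Erg had 1.03 CPM in BNPMT, 4.99 in SEN and 2.92 in NC. Kdr, Tek and Vwf had at most 0.962 CPM, and Cdh5, Tie1 and Emcn were at or near 0. The 6 leukocyte markers with a value summed to 16.3 to 18.4 CPM in BNPMT, 29.4 to 33.2 in SEN and 11.3 to 12.6 in NC. Adgre1 and Tyrobp were at or near 0, and Csf1r had at most 0.403 CPM. Cd68 and Itgam were highest in SEN, at 22.6 and 3.97 CPM. Cd14 was lowest in SEN, at 4.04 CPM, against 16.6 in BNPMT and 11.4 in NC. The part of other cell types in the collagen values was not tested.

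**Figure D4:**
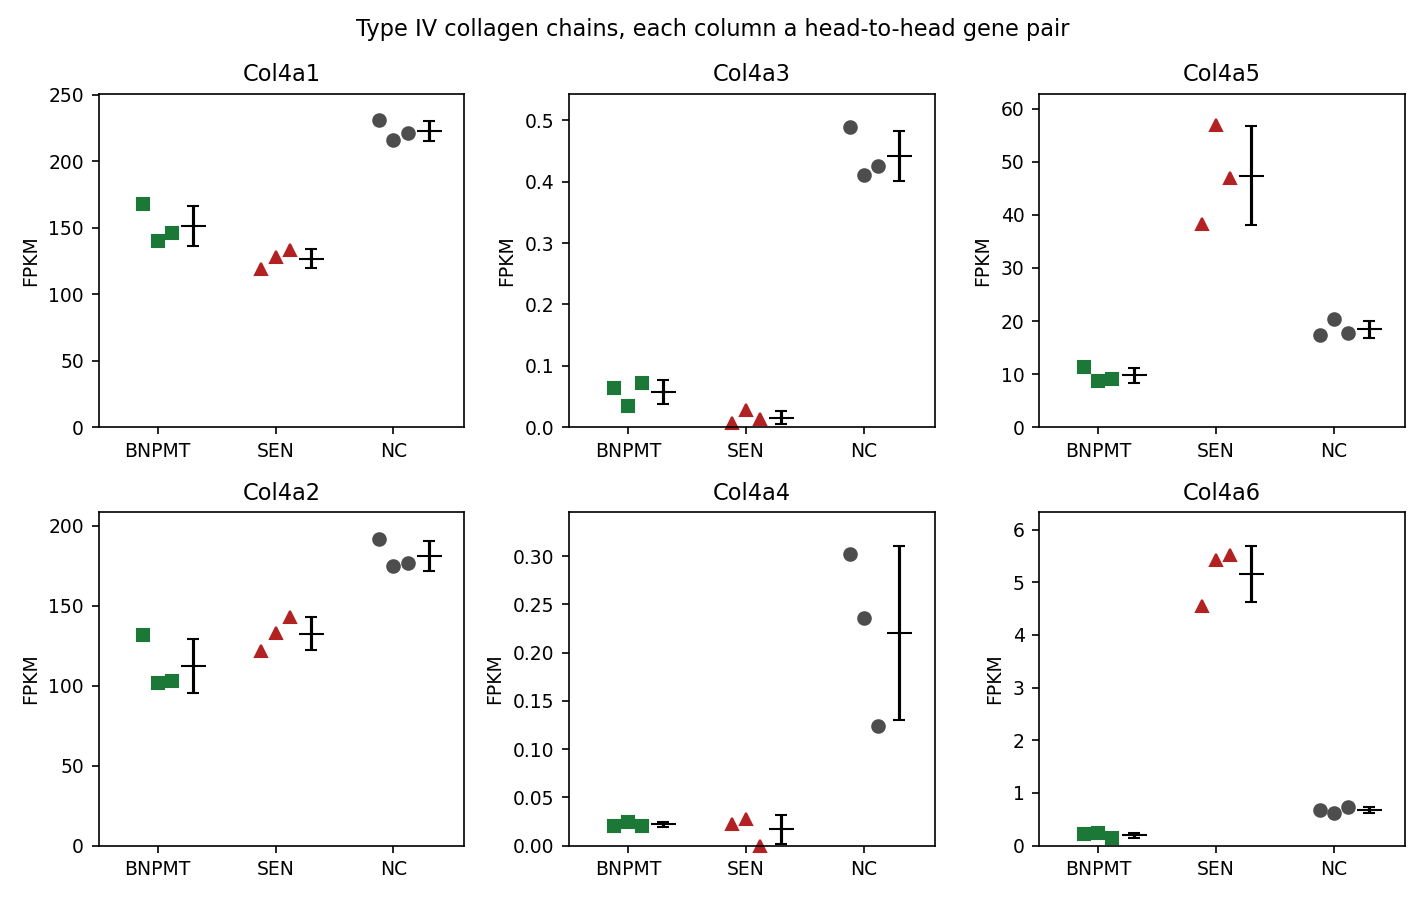
FPKM per library (vertical axes, from 0) of the 6 type IV collagen chains, with each head-to-head gene pair in a column, and the mean ± SD of 3 libraries beside the marks of BNPMT, SEN and NC. Col4a1, Col4a2, Col4a3 and Col4a4 are highest in NC, and Col4a5 and Col4a6 are highest in SEN; the Col4a4 values rest on 0 to 12 counts a library.

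The basement membrane chains beyond type IV included the chain that rose most clearly in BNPMT. Col7a1 forms the anchoring fibrils that tie the epidermal basement membrane to the dermis. It had 1.05, 0.955 and 1.12 FPKM in BNPMT, 0.336, 0.244 and 0.313 in SEN and 0.504, 0.401 and 0.441 in NC. BNPMT was the highest group and SEN the lowest. It was higher in BNPMT by 1.30 ± 0.14 against SEN (adjusted p = 1.29e-06) and by 1.17 ± 0.13 against NC (adjusted p = 1.53e-05). Its SEN against NC change of -0.13 did not pass, and with total counts alone it was -0.58, which passed.

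Col15a1 and Col18a1 encode chains that link basement membranes to the matrix beneath, and the end of the type XVIII chain is released as endostatin. Col18a1 had 36.9 ± 2.38 FPKM in BNPMT, 22.9 ± 1.48 in SEN and 32.9 ± 1.45 in NC. It was higher in BNPMT than in SEN by 0.19 ± 0.06 (adjusted p = 0.0135), a call that was lost with the size factors of DESeq2 (0.12) and without SEN 1 and BNPMT 1 (0.10), and was 0.69 with total counts alone. Its changes of -0.07 in SEN against NC and 0.12 in BNPMT against NC did not pass, but total counts alone gave -0.52 and 0.17, both past the threshold. Col15a1 had 2.11 ± 0.138 FPKM in BNPMT, 1.51 ± 0.165 in SEN and 2.33 ± 0.0429 in NC, and passed the test in no comparison with TMM factors. Total counts alone gave -0.63 for SEN against NC and 0.49 for BNPMT against SEN, both past the threshold, and without SEN 2 the SEN against NC change of -0.18 became -0.27 and passed.

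Among the other classes 9 of 15 tested chains were higher and 0 lower in SEN than in NC, with a median of 0.54 (7 higher and 3 lower with total counts alone). Of all genes 37.6% were higher and 38.5% lower (24.5% and 56.9% with total counts alone). The 6 chains of these classes that did not pass ran from -0.51 to 0.26. In BNPMT against SEN 11 were lower, 1 was higher and 3 did not pass, where 39.9% of all genes were lower and 40.7% higher. In BNPMT against NC the counts were the same, where 26.5% of all genes were lower and 26.3% higher. In that comparison 10 were lower with total counts alone (22.5% of all genes). With the length trend taken out 7 were lower and 7 did not pass, where 3383 of 14956 genes were lower. Type VI collagen, which surrounds disc cells in their pericellular matrix, had in Col6a1 the most abundant chain of these classes in every group. Col6a1 had 416, 379 and 391 FPKM in BNPMT, 734, 719.5 and 747 in SEN and 522, 501 and 507 in NC. SEN was highest and BNPMT lowest, without overlap. Its change was 0.98 ± 0.05 in SEN against NC (adjusted p = 4.09e-10), -1.40 ± 0.05 in BNPMT against SEN (adjusted p = 9.81e-12) and -0.42 ± 0.05 in BNPMT against NC.

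Col6a2 followed it, with 283, 276 and 272 FPKM in BNPMT, 484, 473 and 493 in SEN and 326, 318 and 323 in NC, in the same order of groups. The changes were 1.04 ± 0.05 in SEN against NC, -1.31 ± 0.05 in BNPMT against SEN and -0.27 ± 0.05 in BNPMT against NC. The last of these dropped to -0.09 and lost its call with each library's trend in transcript length taken out. Col6a3, the long chain that carries many repeated globular domains, had 57.0, 43.5 and 46.4 FPKM in BNPMT, 108, 122 and 134 in SEN and 118, 111 and 112 in NC. SEN and NC overlapped, and BNPMT was lower. It fell in BNPMT by 1.81 against SEN and by 1.27 against NC on the log2 scale (SE 0.09 for each, adjusted p = 4.34e-10 and 2.61e-07). The change of 0.54 in SEN against NC was 0.09 with total counts alone, which ends the call. With total counts alone the SEN against NC change was 0.52 for Col6a1 and 0.58 for Col6a2, both past the threshold. Col6a4, Col6a5 and Col6a6 did not pass the filter and had at most 3, 5 and 15 counts in a library.

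Of the 6 FACIT chains 4 were higher and 2 did not pass in SEN against NC (4 higher, 1 lower and 1 not passing with total counts alone). Of all genes 37.6% were higher and 38.5% lower there (24.5% and 56.9% with total counts alone). All 6 FACIT chains were lower in BNPMT than in SEN with TMM factors and with total counts alone, where 39.9% and 25.8% of all genes were lower. Col14a1, which binds fibrils and limits their growth, had 121, 100.5 and 105 FPKM in BNPMT, 486, 518 and 536 in SEN and 242, 233 and 236 in NC. The groups were far apart, with SEN highest. Its log2 change was 1.57 ± 0.06 in SEN against NC (adjusted p = 5.59e-11), -2.74 ± 0.07 in BNPMT against SEN (adjusted p = 2.62e-13) and -1.17 ± 0.06 in BNPMT against NC (adjusted p = 2.31e-08). Col12a1, its close relative on fibrils under tension, had 69.2, 48.0 and 50.1 FPKM in BNPMT, 93.7, 112 and 120.2 in SEN and 149, 142 and 139 in NC. BNPMT was lowest and NC highest, in contrast to Col14a1. Col12a1 was lower in BNPMT by -1.47 ± 0.12 against SEN and by -1.41 ± 0.12 against NC. The change of 0.05 in SEN against NC did not pass with TMM factors, was -0.40 and passed with total counts alone, and was 0.14 and passed without SEN 1 and BNPMT 1. Its direction in SEN differs between scales.

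Col20a1, a FACIT chain close to Col14a1 in sequence, had 0.0859, 0.0731 and 0.0550 FPKM in BNPMT, 0.752, 0.950 and 1.0 in SEN and 0.104, 0.0634 and 0.135 in NC. SEN was above all others, while BNPMT and NC overlapped. It rose by 3.60 ± 0.23 on the log2 scale in SEN against NC (adjusted p = 6.45e-09) and changed by -4.15 ± 0.24 in BNPMT against SEN (adjusted p = 2.08e-09). Its BNPMT against NC change of -0.55 did not pass, but without NC 2 it was -0.80 and passed. Col22a1, known from junctions of muscle and tendon, had 11 counts in all in BNPMT, 125 in SEN and 40 in NC, and changed by 2.25 ± 0.37 in SEN against NC, -4.15 ± 0.45 in BNPMT against SEN and -1.90 ± 0.53 in BNPMT against NC. Col16a1 had 65.9 ± 2.89 FPKM in BNPMT, 77.5 ± 2.46 in SEN and 70.9 ± 1.59 in NC, and rose by 0.58 ± 0.05 in SEN against NC. It fell by 0.74 in BNPMT against SEN on the log2 scale. Its BNPMT against NC change of -0.16 (adjusted p = 0.0160) lost its call without BNPMT 2 (-0.14), BNPMT 3 (-0.15) or NC 1 (-0.14). The call was also lost with total counts alone (-0.11) and with the length trend taken out (0.05). Col19a1 had 45 counts in all in BNPMT, 82 in SEN and 106 in NC. It was lower in BNPMT by -1.53 ± 0.37 against SEN and -1.27 ± 0.36 against NC, the call against NC being lost with the length trend taken out (-0.89).

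Types VIII and X form short-chain networks. Col8a2 had 61.9, 55.2 and 57.1 FPKM in BNPMT, 131, 134 and 127 in SEN and 132, 126 and 128 in NC. SEN and NC overlapped, and BNPMT was below both. The change was -1.67 ± 0.05 in BNPMT against SEN (adjusted p = 3.3e-12) and -1.20 ± 0.05 in BNPMT against NC (adjusted p = 3.48e-09), and in SEN against NC it was 0.47 with TMM factors and 0.02 with total counts alone, which ends the call. Col8a1 had 15.4 ± 4.20 FPKM in BNPMT, 12.7 ± 2.14 in SEN and 21.1 ± 0.639 in NC, with BNPMT 1, at 20.1, above the other BNPMT libraries. It was lower in BNPMT than in NC by -0.51 ± 0.15 (adjusted p = 0.0111). Its BNPMT against SEN change of -0.23 did not pass, but was -0.45 without BNPMT 1 and -0.35 without SEN 1, and then passed. With total counts alone that change was 0.28 and did not pass. Its SEN against NC change of -0.28 (adjusted p = 0.101) was the member nearest outside the threshold, and passed without BNPMT 1 (-0.29), without BNPMT 2 (-0.30) and with total counts alone (-0.73).

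Col10a1, the marker of hypertrophic chondrocytes, had 0, 0 and 1 counts in BNPMT, 14, 14 and 17 in SEN and 1, 0 and 0 in NC. It was detected in every SEN library and with at most 1 count in any other library. Per total count the ratio was 50.1 for SEN against NC (95% counting interval 8.55 to 2023) and 0.0196 for BNPMT against SEN (0.000486 to 0.115). Col10a1 passed the filter on low counts only through its SEN libraries, so its calls give no support beyond these counts. At 0.140 FPKM in SEN it stayed a minor transcript.

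The transmembrane chains were scarce. Col17a1, a hemidesmosome collagen of epithelia, had 35 counts at most in a library, with 0.0980 ± 0.0315 FPKM in BNPMT, 0.0336 ± 0.0104 in SEN and 0.0384 ± 0.00592 in NC. Its rise of 1.04 ± 0.39 in BNPMT against SEN (adjusted p = 0.0246) lost its call without BNPMT 3 (0.76), SEN 1 (0.87) or SEN 2 (1.0), and that of 1.30 ± 0.37 in BNPMT against NC (adjusted p = 0.00961) lost it without BNPMT 3 (1.01). Col23a1 had 50 counts in all in BNPMT, 15 in SEN and 33 in NC, and its change of 1.03 in BNPMT against SEN (adjusted p = 0.0715) did not pass, although it did without BNPMT 3 (1.29) and with total counts alone (1.53). Col25a1, first known from amyloid plaques, had 0.276 ± 0.0737 FPKM in BNPMT, 0.250 ± 0.0736 in SEN and 0.420 ± 0.0324 in NC. It was lower in BNPMT than in NC by -0.64 ± 0.22 (adjusted p = 0.0272), a call lost without BNPMT 2 (-0.46), NC 1 (-0.59) or NC 2 (-0.64). The SEN against NC change, -0.31, passed with total counts alone, at -0.76. In BNPMT against SEN the change was -0.34 with TMM factors and 0.17 with total counts alone, and passed with neither. Without SEN 1 and BNPMT 1 it was -0.65 and passed. Col13a1, Col26a1 and Col28a1 did not pass the filter and had at most 1, 4 and 5 counts in a library.

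The ratio of chains that assemble with each other was set side by side between groups, since a ratio within a library does not depend on scaling. Type I trimers hold more alpha1 than alpha2 chains. The FPKM ratio of Col1a1 to Col1a2 was 2.52 ± 0.0175 in BNPMT, 3.59 ± 0.0512 in SEN and 3.21 ± 0.0131 in NC. The ratio of Col4a1 to Col4a2 was 1.35 ± 0.0704 in BNPMT, 0.954 ± 0.0242 in SEN and 1.23 ± 0.0212 in NC, so that Col4a2 was above Col4a1 in SEN, while the other groups had more Col4a1. The ratio of Col4a5 to Col4a6 was 50.4 ± 12.2 in BNPMT, 9.14 ± 1.17 in SEN and 27.5 ± 4.62 in NC.

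The ratio of Col5a1 to Col5a2 was 0.326 ± 0.0115 in BNPMT, 0.478 ± 0.0175 in SEN and 0.432 ± 0.0110 in NC. For Col6a1 to Col6a2 it was 1.43 ± 0.0467 in BNPMT, 1.52 ± 0.00348 in SEN and 1.58 ± 0.0159 in NC, whereas Col6a1 to Col6a3 was 8.14 ± 0.750 in BNPMT, 6.10 ± 0.628 in SEN and 4.48 ± 0.0532 in NC. Col8a1 to Col8a2 was 0.262 ± 0.0555 in BNPMT, 0.0971 ± 0.0174 in SEN and 0.163 ± 0.00104 in NC. In none of the 21 comparisons (7 ratios in 3 pairs of groups) did the groups overlap. How often ratios of other genes overlap was not counted, so this is not shown to be particular to collagen chains. The exact two-sided permutation test of the log2 ratio gave p = 0.10 for each, adjusted p = 0.10, the smallest value that 3 against 3 libraries can give. With each library's trend in transcript length taken out, an alternative chosen after seeing the data, 20 of the 21 differences kept their direction. The exception was Col6a1 to Col6a3 in BNPMT against SEN, whose log2 difference was -0.04, against 0.42 as measured. The difference of Col4a1 to Col4a2 in that comparison was 0.52, against 0.50 as measured, and that of Col1a1 to Col1a2 was -0.38, against -0.51. The ratio of Col4a3 to Col4a4 was not formed because of counts of 0 and 1.

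**Figure D5:**
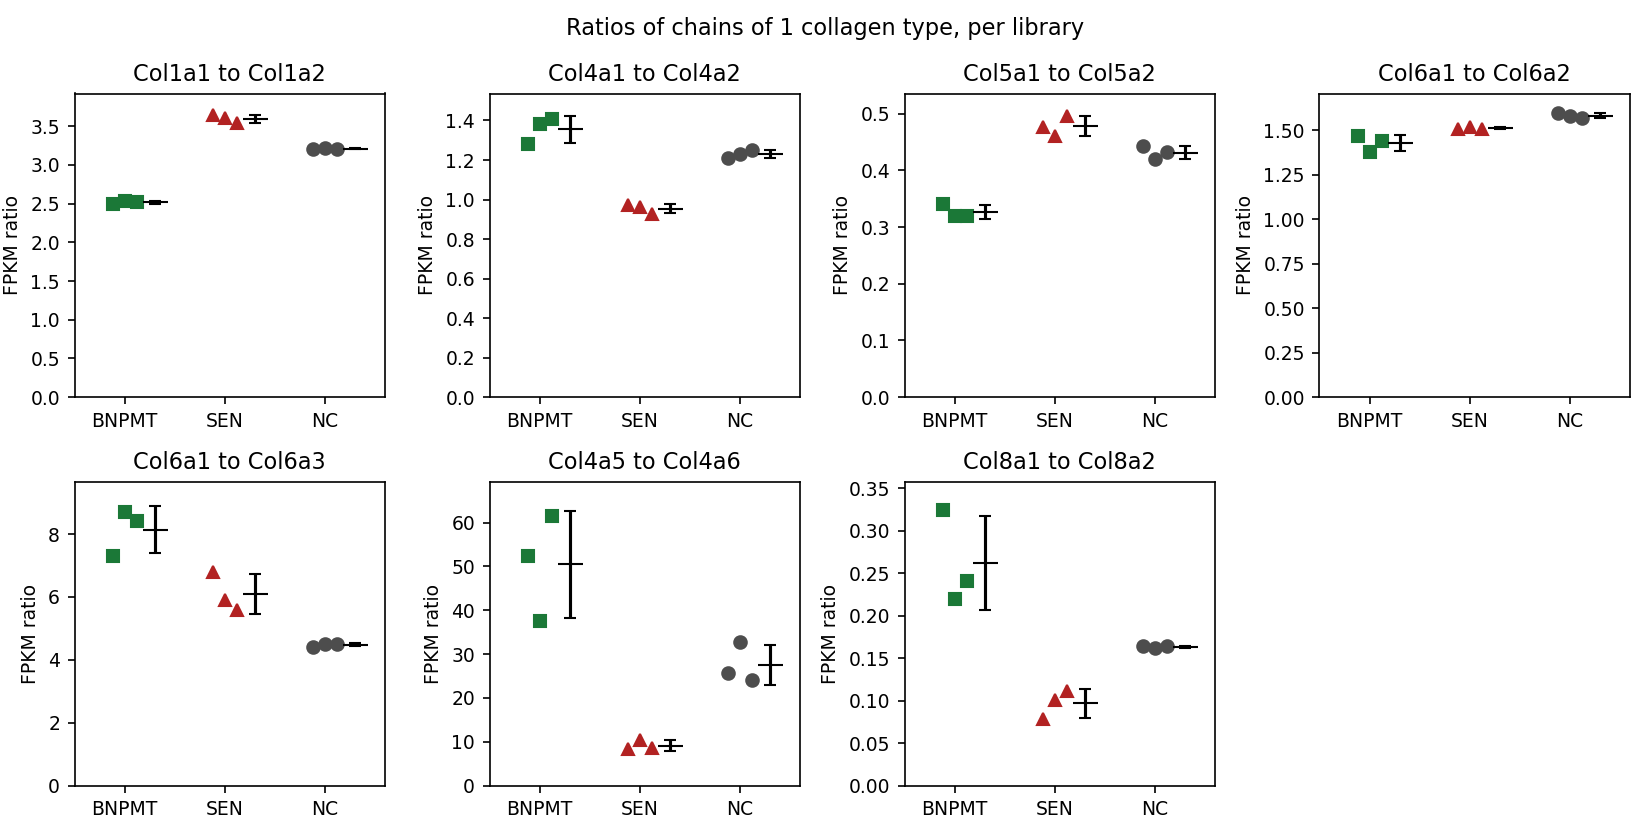
FPKM ratio per library (vertical axes, from 0) of 7 pairs of chains in BNPMT, SEN and NC, with the mean ± SD of 3 libraries beside the marks. No pair of groups overlaps in any panel. The exact test gives p = 0.10 for each difference, the smallest value possible with 3 against 3 libraries. Col1a1 to Col1a2 is lowest in BNPMT and highest in SEN, and Col4a5 to Col4a6 is highest in BNPMT and lowest in SEN.

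Of 31 tested genes that hydroxylate, glycosylate, fold, export or trim collagen, or control its synthesis, 24 were lower, 4 higher and 3 not passing in BNPMT against SEN, where 39.9% of all genes were lower and 40.7% higher. In BNPMT against NC 22 were lower, 2 higher and 7 not passing, where 26.5% of all genes were lower and 26.3% higher. In SEN against NC 19 were higher, 10 lower and 2 not passing, where 37.6% of all genes were higher and 38.5% lower. Tll2 is among the genes higher in SEN, but passed the filter only through its SEN libraries. It had at most 1 count in a BNPMT or NC library, against up to 75 in SEN, so its calls give no support beyond these counts. With total counts alone 14 were lower and 10 higher in BNPMT against SEN (25.8% and 57.3% of all genes). In SEN against NC 11 were higher and 15 lower on that scale (24.5% and 56.9% of all genes). P4ha1, a catalytic subunit of prolyl 4-hydroxylase, had 315 ± 12.9 CPM in BNPMT, 509 ± 13.1 in SEN and 307 ± 1.90 in NC, and rose by 1.18 ± 0.05 in SEN against NC. P4hb, the shared subunit of that enzyme, rose by 0.97 ± 0.05 in SEN against NC. P4ha2, the alternative catalytic subunit, ran the other way, with 119 ± 5.40 CPM in BNPMT, 37.0 ± 0.757 in SEN and 83.3 ± 4.37 in NC. Its change was -0.72 ± 0.06 in SEN against NC, 1.19 ± 0.06 in BNPMT against SEN and 0.47 ± 0.06 in BNPMT against NC.

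The proteases that cut the propeptides off procollagen split likewise. Adamts3 had 2.72 ± 0.546 CPM in BNPMT, 19.1 ± 2.08 in SEN and 7.35 ± 0.493 in NC, and changed by 1.83 ± 0.12 in SEN against NC, -3.31 ± 0.13 in BNPMT against SEN and -1.48 ± 0.14 in BNPMT against NC. Adamts2, its relative that acts on type I procollagen, fell in BNPMT by 1.57 against SEN and by 1.01 against NC on the log2 scale, and Bmp1, the C-proteinase, by 1.29 against SEN. Adamts14 and the Bmp1 relative Tll1 were lower in SEN than in NC (-1.55 ± 0.11 and -1.31 ± 0.07) and higher in BNPMT than in SEN (0.88 ± 0.11 and 0.76 ± 0.07). Creb3l1, a transcription factor known to drive type I collagen secretion, fell by 0.94 in BNPMT against NC on the log2 scale, with 111 ± 5.91 CPM against 207 ± 7.80. Tmem38b, an ion channel of the endoplasmic reticulum, was higher in BNPMT than in NC by 0.29 ± 0.07.

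Of 12 tested receptors of collagen and genes of its uptake and breakdown, 6 were higher and 3 lower in SEN than in NC, 4 higher and 8 lower in BNPMT than in SEN, and 2 higher and 8 lower in BNPMT than in NC. Over all genes the shares were 37.6% higher and 38.5% lower in the first of these comparisons, 40.7% and 39.9% in the second, and 26.3% and 26.5% in the third. With total counts alone 4 were higher and 6 lower in SEN against NC (24.5% and 56.9% of all genes). In BNPMT against SEN 4 were higher and 5 lower on that scale (57.3% and 25.8% of all genes). Without NC 1 the number lower in BNPMT than in NC was 5. Itga10, the integrin alpha10 chain known from cartilage, rose by 2.28 ± 0.14 in SEN against NC and changed by -2.76 ± 0.15 in BNPMT against SEN and -0.48 ± 0.16 in BNPMT against NC. Ctsk, a cathepsin that cuts the triple helix, rose by 1.43 ± 0.08 and Fap, a peptidase of activated fibroblasts, by 1.54 ± 0.12 in SEN against NC. They changed by -1.41 ± 0.08 and -1.39 ± 0.12 in BNPMT against SEN. Ddr1, a receptor kinase for collagen, had 81.0 ± 5.69 CPM in BNPMT, 27.4 ± 1.20 in SEN and 88.5 ± 3.62 in NC, and its change was -1.24 ± 0.06 in SEN against NC and 1.06 ± 0.06 in BNPMT against SEN.

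Itga11, the integrin alpha11 chain that binds fibrillar collagen, had 99.3 ± 15.4 CPM in BNPMT, 107 ± 6.06 in SEN and 234 ± 7.43 in NC, and fell by 1.29 in BNPMT against NC and by 0.67 in SEN against NC on the log2 scale. Itga1, which prefers type IV collagen, fell by 0.60 in BNPMT against NC. Itga2 rose by 1.17 ± 0.16 in BNPMT against SEN and by 0.82 ± 0.15 in BNPMT against NC. Pepd, which frees proline from collagen dipeptides, was higher in BNPMT than in NC by 0.58 ± 0.07, and the prolyl peptidase Prep was lower in SEN than in NC by -0.74 ± 0.05 and higher in BNPMT than in SEN by 0.53 ± 0.05.

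Of 16 other proteins of basement membranes 7 were higher and 6 lower in SEN than in NC (2 and 9 with total counts alone), 4 higher and 11 lower in BNPMT than in SEN (7 and 7 with total counts alone), and 1 higher and 12 lower in BNPMT than in NC. Of all genes 37.6% were higher and 38.5% lower in SEN than in NC, 40.7% higher and 39.9% lower in BNPMT than in SEN, and 26.3% higher and 26.5% lower in BNPMT than in NC. With total counts alone these shares were 24.5% and 56.9% in SEN against NC, and 57.3% and 25.8% in BNPMT against SEN. Sparc, which binds collagen in the secretory path and the matrix, had 4712 ± 115 CPM in BNPMT, 9605 ± 329 in SEN and 6222 ± 59.2 in NC, and changed by 1.08 ± 0.05 in SEN against NC and -1.53 ± 0.05 in BNPMT against SEN. The laminin chain Lama5 rose by 1.04 ± 0.12 and Lamb2 by 0.58 ± 0.05 in SEN against NC, the second not called with total counts alone (0.13). Lama5 changed by -2.05 ± 0.12 in BNPMT against SEN and by -1.01 ± 0.12 in BNPMT against NC. Hspg2, which encodes perlecan, and Pxdn, the peroxidase that cross-links type IV collagen, fell in BNPMT against NC by 1.23 and 0.97 on the log2 scale, and Hspg2 fell by 1.55 in BNPMT against SEN. Smoc2 ran the other way, with 278 ± 7.66 CPM in BNPMT, 44.0 ± 2.04 in SEN and 136 ± 3.12 in NC. Its change was -1.17 ± 0.06 in SEN against NC, 2.15 ± 0.06 in BNPMT against SEN and 0.98 ± 0.06 in BNPMT against NC. Its relative Smoc1 changed by -2.22 ± 0.17 in SEN against NC and 2.50 ± 0.17 in BNPMT against SEN, and Fbln2 by -0.66 ± 0.05 and 0.28 ± 0.05 in the same comparisons.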

How the data were processed

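The authors deposited whole-number counts per gene and FPKM values. Fastp, HISAT2, HTSeq and the build mRatBN7.2 stand in the submitters' processing notes, without versions or roles. Which annotation was used, and whether counting used strand, is not given in the sources used here, and overlapping genes cannot be told apart. Per the labels, TRIzol was used for extraction and a VAHTS Universal V6 kit for the libraries. Deposited FPKM equalled the count over length and library total (largest relative difference 1.76e-13), from which transcript lengths were taken.

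Counts were filtered with filterByExpr and tested with edgeR 4.0.16 in R 4.3.3 (TMM factors, quasi-likelihood F test, 3 groups, all 9 libraries, Benjamini-Hochberg over 14956 genes, threshold 0.05). A log2 change is the first group minus the second, with its standard error, computed from the deposited counts. Means of CPM and FPKM, given with their SD (n = 3), were not tested. A count of 3, taken as the floor, is worth 0.0715 to 0.0961 CPM in a library. Counting intervals are exact 95% intervals of the ratio of 2 Poisson counts.

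Alternatives were the size factors of DESeq2, total counts alone, the trend with transcript length taken out per library by loess (span 0.5), no filter, a filter of 1 CPM in 3 libraries, a replicate block, a fit of the 2 groups compared, leaving out SEN 1 and BNPMT 1 together, leaving out each library, the Wald test of DESeq2 1.42.0, and limma 3.58.1 on log2(FPKM + 1) and log2(FPKM + 0.1) of the deposited FPKM. The 4 scales are TMM, total counts, DESeq2 size factors and the length trend taken out.

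The members, classes and gene lists were chosen with earlier results of these data known. Values per library are given for chains with a mean of at least 5 CPM in some group and a called log2 change of at least 1 in some comparison, and, chosen after their values were seen, for Col4a1, Col4a3 and Col10a1. Other tested chains are given by means, and untested ones by counts. Of each list the 3 largest called rises and 3 largest called falls among genes of at least 5 CPM in some group are named. Within groups no libraries were duplicates (chi-square per degree of freedom 3.41 to 31.6).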

Additional observations from a re-analysis of the deposited data

How the results depend on the processing

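Over 20 alternatives, 1733 of 1841 recomputed changes of single chains were counted as the same, 48 lost a call, 40 gained one and 20 turned direction. A turn was counted only where the main fit or the alternative was called. Changes called in neither were counted as the same even where their sign differed, as for Col8a1 in BNPMT against SEN (-0.23, and 0.28 with total counts alone). No cause was tested. In SEN against NC, total counts alone and limma with either constant gave -0.40 for Col12a1, -0.16 for Col1a2, -0.06 for Col5a1 and -0.21 for Col5a2, and the length trend taken out gave 0.08 for Col3a1. In BNPMT against SEN, total counts alone gave 0.49 for Col15a1 and 0.26 for Col4a1, limma on log2(FPKM + 1) gave 0.31 and 0.25, and limma on log2(FPKM + 0.1) gave 0.46 and 0.25. In BNPMT against NC the length trend taken out gave 0.05 for Col16a1.

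For SEN against NC, total counts alone gave 10 chains higher and 13 lower (both limma fits 10 and 12), 3667 genes of the whole table higher (limma 3651 with the constant 1 and 3673 with 0.1), 11 maturation genes higher (limma 11), 6 receptor genes lower (limma 6) and 2 basement membrane partners higher (limma 3). No filter gave 5 chains lower. Leaving out each library gave 2 to 5 chains lower, with 5 without BNPMT 1 and without BNPMT 2.

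For BNPMT against SEN, total counts alone gave 7 chains higher, as did limma with 0.1, and 3857 genes lower (limma 3782 with the constant 1 and 3829 with 0.1). Maturation genes were then 10 higher and 14 lower (limma 9 and 14), receptor genes 5 lower (limma 5), and basement membrane partners 7 higher and 7 lower (limma 7 and 7). The Wald test of DESeq2 gave 2 chains higher, and 1 was higher without SEN 1 and BNPMT 1. Leaving out each library gave 2 to 4 chains higher, with 2 without SEN 1.

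For BNPMT against NC, the filter of 1 CPM gave 1 chain higher, and leaving out each library 1 to 2, with 1 without BNPMT 3. Maturation genes higher were 4 with total counts alone, both limma fits, and without SEN 1 and BNPMT 1. Receptor genes lower were 5 with limma on log2(FPKM + 1) and 5 to 8 when each library was left out, with 5 without NC 1. Basement membrane partners higher were 2 with total counts alone, the length trend taken out, and limma on log2(FPKM + 1). As summed CPM the other classes had a ratio of 1.35 in SEN against NC and 0.604 in BNPMT against NC.

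With the length trend taken out, log2 differences of chain ratios moved by more than the spread between libraries in 11 cases. For Col1a1 to Col1a2 they were 0.12 in SEN against NC, -0.38 in BNPMT against SEN and -0.26 in BNPMT against NC. For Col5a1 to Col5a2 they were -0.42 in BNPMT against SEN and -0.32 in BNPMT against NC. For Col6a1 to Col6a2 they were -0.02, -0.21 and -0.24, and for Col6a1 to Col6a3 0.60, -0.04 and 0.56, in SEN against NC, BNPMT against SEN and BNPMT against NC. This alternative was chosen after seeing the data.

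Libraries with the same number did not deviate together (correlations of -0.24 to 0.06). These correlations cannot decide whether the numbers pair the samples, because deviations within groups also followed transcript length, which could mask a shared source. The replicate block gave 17 chains higher and 3 lower in SEN against NC, 4 and 23 in BNPMT against SEN, and 2 and 23 in BNPMT against NC, where only Col25a1 lost its call among the chains. Col17a1 had 74 counts in all in BNPMT, 22 in SEN and 28 in NC, and Col23a1 had 50, 15 and 33, so their changes rest on few counts.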
